A study of Mus musculus with 4 samples.

Results

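The respiratory chain and the ATP synthase of mouse liver were examined at the level of messenger RNA. All genes of the table whose symbols name a structural subunit of complexes I to V were taken, chosen by symbol and not by any measured value (symbols beginning with Nduf and a, b, c, s or v, with Sdha to Sdhd, Uqcr, Cox4 to Cox8 or Atp5, and the mitochondrially encoded mt-Nd, mt-Co, mt-Cytb and mt-Atp genes). This gave 106 of 22155 symbols. Of these, 82 are nuclear-encoded subunits, 13 are mitochondrially encoded subunits, and 11 are not subunits of a complex but share the naming pattern: the assembly factors Ndufaf1 to Ndufaf8 and Atp5sl, the supercomplex factor Cox7a2l and the ATP synthase-associated Atp5s. Of the nuclear-encoded subunits, 36 belong to complex I, 4 to complex II, 8 to complex III, 19 to complex IV and 15 to complex V. Ndufa4 and its relative Ndufa4l2 were counted with complex IV, where the Ndufa4 protein resides.

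The livers came from wild-type C57BL/6 mice, an inbred laboratory strain, aged 8 to 10 weeks. The gavage group (2 libraries) ate a Lieber-DeCarli liquid diet with 5% ethanol over 10 days and then received 1 binge of ethanol, 5 g per kg body weight, through a tube into the stomach, with the liver taken 9 hours later. The ethanol alone group (2 libraries) ate the same diet without the binge, so the comparison concerns the binge on top of ethanol feeding and includes no mouse without ethanol. The treatment text of the labels reads alike for all 4 samples, so each library was placed by its title. The sources used here do not give the sex of the mice, a control gavage or the hour of death in the ethanol alone group. No label ties the libraries to separate animals, and the p-values therefore reflect the spread among these libraries alone, which may be technical.

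Total counts were 29914491 and 30039731 in the gavage libraries and 28791281 and 30347558 in the ethanol alone libraries. Levels are given as CPM (the count scaled to a common library size), in the order replicate 1, replicate 2. The hepatocyte marker list (7 of 7 genes detected) summed to 98523 and 121494 CPM in the gavage libraries and 147590 and 126602 CPM in the ethanol alone libraries, led by albumin. Both libraries with the replicate number 1 also held markers of tissues other than liver. Summed over 7 skeletal muscle markers, the level was 766 and 1.16 CPM in the gavage libraries and 348 and 10.6 CPM in the ethanol alone libraries. Cfd, a protease secreted by fat cells and named here after its values were seen, had 23.0 CPM and no count in the gavage libraries and 22.9 CPM and no count in the ethanol alone libraries. Of the 6 adipocyte markers, 5 were at 0 in at least 1 library; the other, Car3, is also made by hepatocytes and carried nearly all of the list's sum of 592 and 558 CPM in the gavage libraries and 2008 and 1924 CPM in the ethanol alone libraries. In bulk tissue, fewer cells of a type and less RNA per cell cannot be told apart.

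The respiratory chain moves electrons from NADH, through complex I, and from succinate, through complex II, to coenzyme Q, then through complex III and cytochrome c to complex IV, where oxygen is reduced. Complexes I, III and IV pump protons across the inner mitochondrial membrane, and complex V, the ATP synthase, lets them back to make ATP. Mitochondrial DNA encodes a small set of core subunits of complexes I, III, IV and V, and nuclear genes encode all of complex II and every other subunit, so the chain needs both genomes to be expressed together. In liver, ethanol breakdown delivers large amounts of NADH, which the chain reoxidises.

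The nuclear-encoded subunits lay lower in the gavage libraries almost as a block. With all libraries included the mitochondrially encoded ones did not share that pattern, but without ethanol alone replicate 1 their median lay lower too. Of 78 nuclear-encoded subunits with enough counts to test, 73 had a log2 fold change (gavage over ethanol alone) below 0, and the median was -0.61. Over all 13309 tested genes, 6428 (48.3%) lay below 0 and the median was 0.02. The median of the 8 tested mitochondrially encoded subunits was -0.05, with 6 below 0. Without ethanol alone replicate 1 it was -0.30, against -0.38 for the nuclear-encoded subunits. No member, and no gene at all (0 of 13309, 0%), passed an adjusted p of 0.05 in the quasi-likelihood test of edgeR (Benjamini-Hochberg), and the smallest adjusted p among the members was 0.168.

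Without adjustment, 39 of the 78 nuclear-encoded subunits had a quasi-likelihood p under 0.05 and stood lower, against 9.85% of all tested genes, and none stood higher, against 8.91%. In 70 of the 78 both gavage libraries lay below both ethanol alone libraries, against 27.2% of all tested genes; in 2 both lay above (27.5% of all), and in 6 the groups overlapped. DESeq2's Wald test, which called 4.94% of all tested genes lower and 3.93% higher after adjustment, called 9 of the 78, all lower: Ndufv3, Uqcrq, Atp5k, Atp5e, Ndufb11, Ndufa4, Cox4i1, Ndufa1 and Ndufa2. The likelihood-ratio test of edgeR, which called 1.98% of all tested genes lower, called 1 of the 78, Ndufv3, a smaller share. limma-voom called no gene (0%).

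**Figure D1:**
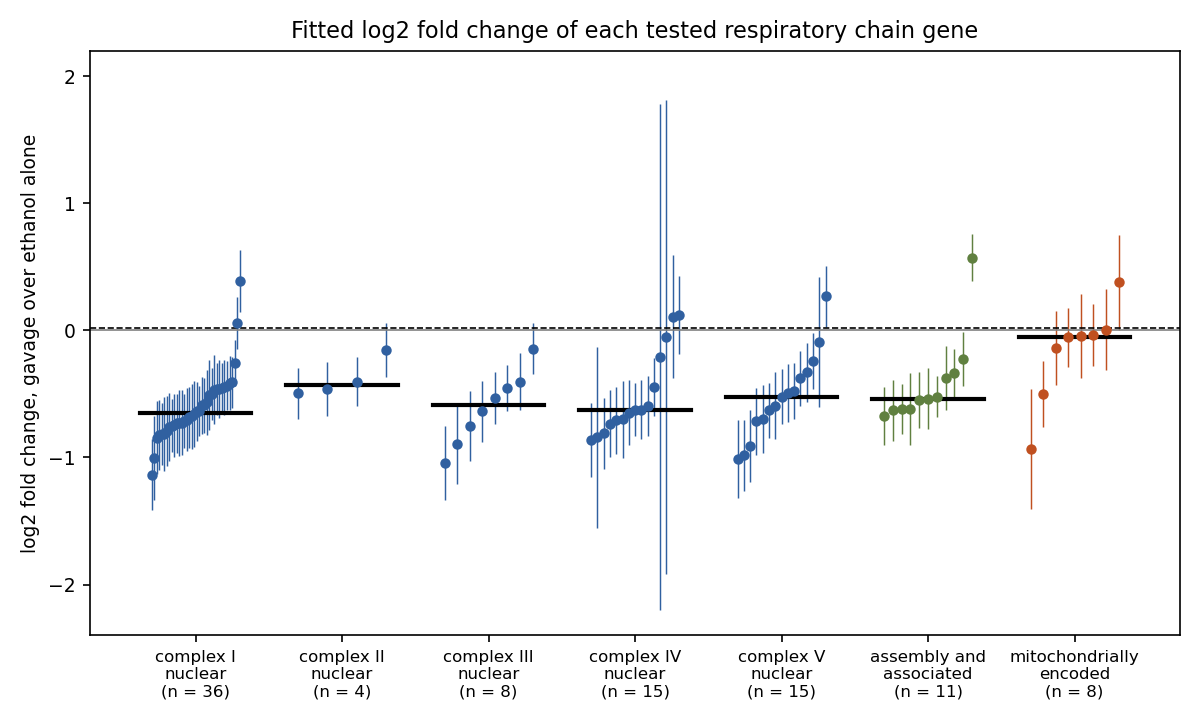
Each point is 1 tested gene; the vertical axis is its fitted log2 fold change, gavage over ethanol alone, with the SE as a bar, and the horizontal axis groups the genes by complex and genome. Black bars are medians and the dashed line is the median of all tested genes; the 5 nuclear sets have medians between -0.65 and -0.43, and the mitochondrially encoded set has a median of -0.05.

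The complexes were alike in direction. The median log2 fold change was -0.65 for complex I (34 of 36 below 0, with 22 at p under 0.05), -0.43 for complex II (4 of 4, with 0), -0.59 for complex III (8 of 8, with 5), -0.62 for complex IV (13 of 15, with 6) and -0.52 for complex V (14 of 15, with 6). These medians share the same 4 libraries and differences among them were not tested.

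A large part of the difference came from 1 library. Ethanol alone replicate 1 held the highest value of the 4 libraries for 67 of the 78 nuclear-encoded subunits (85.9%), against 31.6% of all tested genes. Within the ethanol alone group, replicate 1 exceeded replicate 2 by a median of 0.49 on the log2 scale for these subunits, while the 2 gavage libraries differed by a median of -0.08. Without ethanol alone replicate 1 the median of the nuclear-encoded subunits was -0.38, with 71 of 78 below 0 and 16 at an unadjusted quasi-likelihood p under 0.05 and lower, against 7.55% of the 13875 genes tested then. The same direction was present between the libraries with the replicate number 2, where gavage lay below ethanol alone in 73 of 78 (93.6%, against 49.5% of all tested genes) with a median of -0.32; between those with the number 1 the median was -0.85. The skeletal muscle markers and Cfd were high in gavage replicate 1 and in ethanol alone replicate 1, while the sum of the adipocyte list was not. Relative to each gene's mean over the 4 libraries, the median of the nuclear-encoded subunits was -0.33 in gavage replicate 1 and 0.56 in ethanol alone replicate 1. The part of other tissues in these values was not tested.

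**Figure D2:**
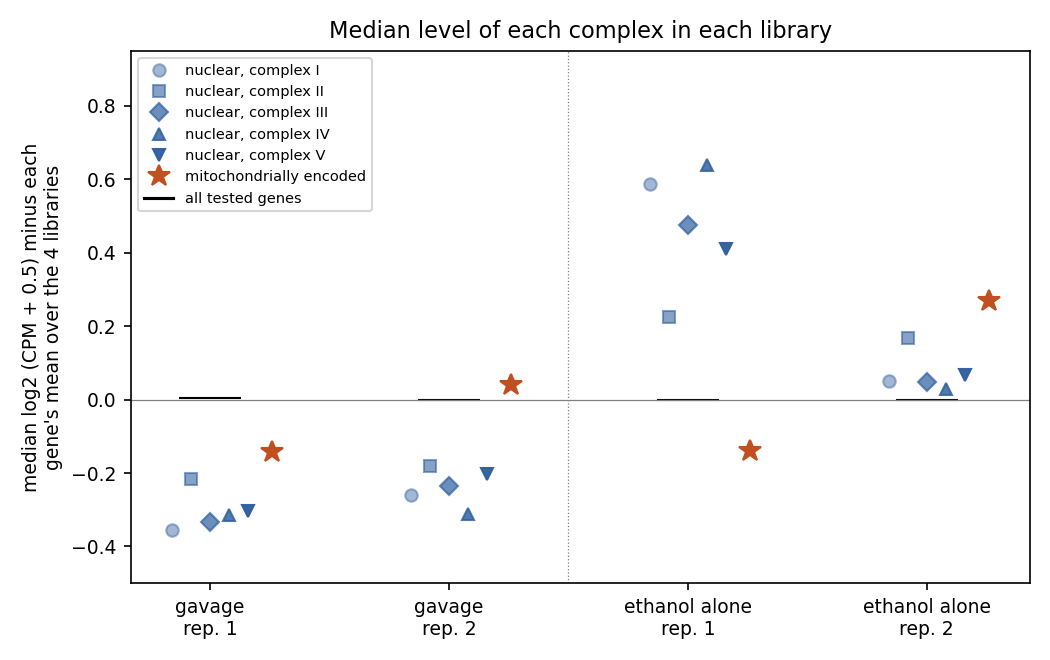
For each library the vertical axis gives the median, over the tested genes of a set, of log2 (CPM + 0.5) minus the gene's mean over the 4 libraries. Blue symbols are the nuclear-encoded subunits of complexes I to V, the star is the mitochondrially encoded set and the black line all tested genes. All 5 blue symbols lie below 0 in both gavage libraries and above 0 in both ethanol alone libraries, highest in replicate 1, where the star is at -0.14.

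Complex I takes electrons from NADH. Its nuclear-encoded subunits include 7 core subunits, which carry the flavin and the iron-sulfur clusters, and accessory subunits (29 of them), which surround and stabilise that core. The accessory subunits had a median log2 fold change of -0.68, with 28 of 29 below 0. The core subunits had a median of -0.45, with 6 of 7 below 0. Without ethanol alone replicate 1 these medians were -0.40 and -0.33. With the offset for transcript length and GC content described below they were -0.33 and -0.24. This split was made after the values were seen, and its difference was not tested. Ndufv3 (ENSMUSG00000024038.17, chr17:31520115-31531331 of GRCm38, forward strand), a small accessory subunit of the NADH-binding module, had the lowest fold change of all subunits. Its levels were 33.3 and 33.5 CPM in the gavage libraries and 91.6 and 55.3 CPM in the ethanol alone libraries. The gavage libraries were nearly equal and both below ethanol alone, whose replicates differed widely. The log2 fold change was -1.14 ± 0.28 (SE, n = 2 each), with an edgeR quasi-likelihood p of 0.0088, adjusted 0.168; the adjusted p was 0.00627 in DESeq2 and 0.037 in the likelihood-ratio test. Without ethanol alone replicate 1 its log2 fold change was -0.75. The other accessory subunits below 0 lay between -1.003 for Ndufa2 and -0.26 for Ndufab1, the acyl carrier protein. Of the core subunits, Ndufs8 and Ndufs7, which carry iron-sulfur clusters, were at -0.76 and -0.66, and Ndufv2, Ndufs3 and Ndufv1 at -0.46, -0.44 and -0.41.

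Ndufb11, an accessory subunit of the membrane arm, had 54.7 and 58.1 CPM in the gavage libraries and 117.6 and 81.0 CPM in the ethanol alone libraries. Ndufa1, another membrane-arm subunit, had 27.5 and 27.8 CPM in the gavage libraries and 53.9 and 39.1 CPM in the ethanol alone libraries. Ndufa7, an accessory subunit, had 34.1 and 36.6 CPM in the gavage libraries and 66.8 and 49.3 CPM in the ethanol alone libraries. In all 3 the groups did not overlap, and the log2 fold changes were -0.82, -0.75 and -0.71.

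Only 2 nuclear-encoded complex I subunits lay above 0. Ndufa8, an accessory subunit, had 107.9 and 81.6 CPM in the gavage libraries and 81.3 and 63.5 CPM in the ethanol alone libraries. Gavage replicate 2 barely exceeded ethanol alone replicate 1, and the log2 fold change was 0.39 ± 0.24 (SE, n = 2 each; edgeR adjusted p = 0.426). Ndufs1, the largest core subunit, had 130.9 and 147.7 CPM in the gavage libraries and 125.3 and 142.2 CPM in the ethanol alone libraries, which overlap, with a log2 fold change of 0.06.

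Complex II is succinate dehydrogenase, which also works in the citrate cycle and has no mitochondrially encoded subunit. Sdhc, a membrane anchor (chr1:171127165-171150603, reverse strand), had 124 and 142 CPM in the gavage libraries and 186 and 189 CPM in the ethanol alone libraries. The groups did not overlap and the 2 ethanol alone libraries were close, unlike in complex I. The log2 fold change was -0.50 ± 0.20 (SE, n = 2 each; edgeR adjusted p = 0.272), and -0.53 without ethanol alone replicate 1. Sdhb, the iron-sulfur subunit, and Sdhd, the other anchor, had log2 fold changes of -0.46 and -0.40. Sdha, the flavin-carrying catalytic subunit, had 482 and 467 CPM in the gavage libraries and 505 and 552 CPM in the ethanol alone libraries, with a log2 fold change of -0.15 ± 0.21 (SE, n = 2 each; edgeR adjusted p = 0.728).

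Complex III passes electrons from coenzyme Q to cytochrome c. Uqcrq (ENSMUSG00000044894.14, chr11:53427922-53430831, reverse strand), a small subunit that contacts cytochrome b, had 109.5 and 112.3 CPM in the gavage libraries and 283 and 174.5 CPM in the ethanol alone libraries. The gavage libraries agreed closely and lay below both others, while ethanol alone replicate 1 stood far above replicate 2. The log2 fold change was -1.04 ± 0.29 (SE, n = 2 each; edgeR adjusted p = 0.192; DESeq2 adjusted p = 0.00868), and -0.68 without ethanol alone replicate 1. The small subunits Uqcr11, Uqcrh and Uqcr10 had log2 fold changes of -0.89, -0.75 and -0.64 (-0.43, -0.41 and -0.36 without ethanol alone replicate 1), Uqcrb of -0.45, the iron-sulfur protein Uqcrfs1 of -0.53, and the large subunits Uqcrc1 and Uqcrc2 of -0.41 and -0.14. Uqcrc2 had 222 and 219.9 CPM in the gavage libraries and 241 and 247 CPM in the ethanol alone libraries; the groups did not overlap, but the gap was small (edgeR adjusted p = 0.728). Cyc1, the nuclear-encoded cytochrome c1 of complex III, which the naming pattern does not take in, had 125.2 and 129.3 CPM in the gavage libraries and 178 and 149 CPM in the ethanol alone libraries, with a log2 fold change of -0.36.

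Complex IV is cytochrome c oxidase. Cox4i1 (chr8:120668222-120674207, forward strand), the ubiquitous form of a regulatory subunit, had 197 and 203 CPM in the gavage libraries and 427 and 275 CPM in the ethanol alone libraries. Ndufa4 (chr6:11900292-11907497, reverse strand) had 115.4 and 128 CPM in the gavage libraries and 273 and 169.8 CPM in the ethanol alone libraries. In both genes the groups did not overlap and ethanol alone replicate 1 was the highest library. The log2 fold changes were -0.81 ± 0.28 for Cox4i1 (SE, n = 2 each; edgeR adjusted p = 0.237) and -0.86 ± 0.29 for Ndufa4 (edgeR adjusted p = 0.228), and without ethanol alone replicate 1 they were -0.49 and -0.51. Cox6c, Cox6b1, Cox7b, Cox8a, Cox7a2, Cox6a1, Cox5a and Cox5b lay between -0.73 and -0.45, and between -0.41 and -0.16 without that library. Cox7c was at 0.12, from 61 to 76 counts a library, and 53.0% of its 50-base windows occur in other genes' transcripts.

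Several complex IV subunits have a form of striated muscle beside the liver form, and here the pairs behaved differently. The liver forms lay lower in gavage without overlap: Cox6a1 had 111.1 and 118.7 CPM in the gavage libraries and 214 and 147 CPM in the ethanol alone libraries. Cox7a2 had 63.0 and 67.7 CPM in the gavage libraries and 134.6 and 77.6 CPM in the ethanol alone libraries. Cox8a had 42.9 and 41.7 CPM in the gavage libraries and 75.0 and 55.4 CPM in the ethanol alone libraries. Their log2 fold changes were -0.65, -0.70 and -0.62, and -0.38, -0.27 and -0.41 without ethanol alone replicate 1.

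The muscle forms split by replicate number, not by group. Cox6a2 had 161 and 2 counts in the gavage libraries and 163 and 2 counts in the ethanol alone libraries. Cox8b had 69 and 0 counts in the gavage libraries and 59 and 4 counts in the ethanol alone libraries. Cox7a1 had 1.91 and 0.764 CPM in the gavage libraries and 3.62 and 1.19 CPM in the ethanol alone libraries. All 3 were highest in the 2 libraries with the highest sums of the skeletal muscle markers, those numbered 1; ethanol alone replicate 2 also held them, at 10.6 CPM. The SE of the log2 fold change was 1.99 for Cox6a2 and 1.87 for Cox8b, and the part of muscle RNA in these values was not tested. Without ethanol alone replicate 1 the fitted log2 fold changes of Cox6a2 and Cox8b were 5.20 and 3.01, set against the 2 and 4 counts of the ethanol alone library left, and that of Cox7a1 was 0.15 where it had been -0.84.

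The remaining alternative forms were near the limit of detection. A count of 3, taken as the floor, corresponds to 0.0955 and 0.0996 CPM in the gavage libraries and 0.110 and 0.0991 CPM in the ethanol alone libraries; floors cover counting error only. Cox4i2, the lung form of Cox4, had 4 and 0 counts in the gavage libraries and 4 and 0 in the ethanol alone libraries. Cox6b2, a testis form, had 5 and 8 counts in the gavage libraries and 8 and 10 in the ethanol alone libraries. Cox7b2 and Cox8c had no count in any library, which allows up to the floor. Ndufa4l2, a relative of Ndufa4 induced by low oxygen, had 1.47 and 0.83 CPM in the gavage libraries and 1.21 and 0.925 CPM in the ethanol alone libraries, which overlap.

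**Figure D3:**
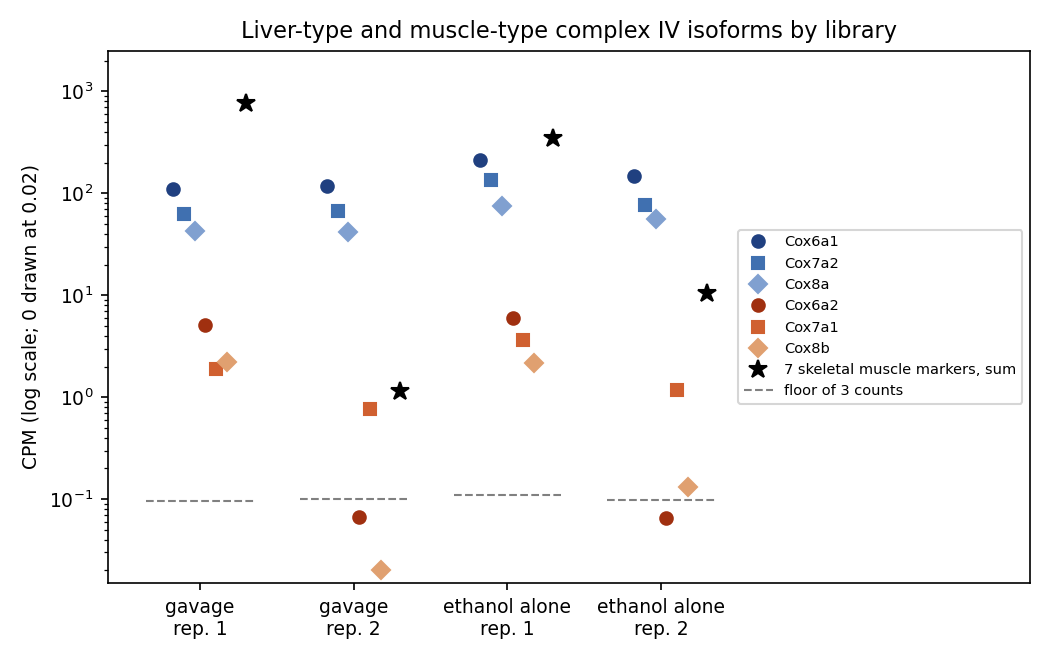
Levels in CPM (log axis, with a value of 0 drawn at 0.02) of liver-type isoforms (blue), muscle-type isoforms (red) and the summed skeletal muscle markers (star) in each library, with the floor of 3 counts as a dashed line. The blue points are above 40 CPM in all 4 libraries, and the red points of Cox6a2 and Cox8b are above 2 CPM only in the replicate 1 libraries, where the star is also highest, at 766 CPM in gavage replicate 1 and 348 CPM in ethanol alone replicate 1.

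Complex V, the ATP synthase, has a catalytic head and a membrane part joined by stalks. Atp5e (ENSMUSG00000016252.7, chr2:174461072-174464105, reverse strand), the smallest head subunit, had 59.7 and 63.3 CPM in the gavage libraries and 158 and 90.2 CPM in the ethanol alone libraries. Atp5k (ENSMUSG00000050856.16, chr5:108433244-108434448, reverse strand), a small membrane subunit, had 37.5 and 38.8 CPM in the gavage libraries and 93.9 and 57.1 CPM in the ethanol alone libraries. Both were separated between the groups, with ethanol alone replicate 1 well above the rest. The log2 fold changes were -1.01 ± 0.31 for Atp5e (SE, n = 2 each; edgeR adjusted p = 0.206; DESeq2 adjusted p = 0.0245) and -0.98 ± 0.28 for Atp5k (edgeR adjusted p = 0.194; DESeq2 adjusted p = 0.0213). Without ethanol alone replicate 1 they were -0.58 and -0.61.

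The large subunits of the head differed less. Atp5b, the catalytic beta subunit and the nuclear-encoded member with the highest level per kilobase (a mean of 574 CPM per kilobase), had 938 and 1010 CPM in the gavage libraries and 1297 and 1153 CPM in the ethanol alone libraries. The groups did not overlap, and the log2 fold change was -0.33 ± 0.23 (SE, n = 2 each; edgeR adjusted p = 0.471). Atp5a1, the alpha subunit, was at -0.24 and the gamma subunit Atp5c1 at -0.48. The remaining head and stalk subunits, Atp5d, Atp5o, Atp5h, Atp5j and Atp5f1, lay between -0.72 and -0.38. Atp5j2, a membrane subunit, was at -0.91. The membrane ring subunit is encoded by 3 genes. Atp5g3 had 231 and 251 CPM in the gavage libraries and 379 and 299.9 CPM in the ethanol alone libraries, without overlap and with a log2 fold change of -0.49. Atp5g1 had 2.61 and 3.35 CPM in the gavage libraries and 4.47 and 4.53 CPM in the ethanol alone libraries, also without overlap, at -0.59.

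Atp5g2 had 14 to 16 counts in every library, and 100% of its 50-base windows occur in a copy elsewhere in the genome, so its level is uncertain. The same holds in part for Atp5l, with 84.8% of windows shared. Atp5l had 5.29 and 6.81 CPM in the gavage libraries and 5.16 and 4.89 CPM in the ethanol alone libraries, the only complex V subunit above 0, at 0.27 ± 0.24 (SE, n = 2 each; edgeR adjusted p = 0.58). Atpif1, the inhibitor of the ATP synthase and no member, had 11.5 and 9.17 CPM in the gavage libraries and 15.6 and 14.1 CPM in the ethanol alone libraries, which do not overlap, with a log2 fold change of -0.52 ± 0.21 (SE, n = 2 each; edgeR adjusted p = 0.266).

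Among the 11 assembly and associated factors, 10 lay below 0, against 48.3% of all tested genes, and both gavage libraries were below both ethanol alone libraries in the same number, against 27.2% of all tested genes. The median was -0.54. Ndufaf1, which helps build the membrane arm of complex I, had 19.0 and 20.5 CPM in the gavage libraries and 30.1 and 26.6 CPM in the ethanol alone libraries. Its log2 fold change was -0.52 ± 0.16 (SE, n = 2 each; edgeR adjusted p = 0.206), and the 2 libraries of each group were close. Ndufaf4, an assembly factor of the arm that binds coenzyme Q, stood the other way. It had 42.4 and 48.5 CPM in the gavage libraries and 27.7 and 33.4 CPM in the ethanol alone libraries, a log2 fold change of 0.57 ± 0.18 (SE, n = 2 each; edgeR adjusted p = 0.218). It was the highest fold change of all members tested and the sole member at an unadjusted p under 0.05 that stood higher. Cox7a2l, a factor of supercomplexes of complexes III and IV, had 28.5 and 27.7 CPM in the gavage libraries and 48.2 and 33.8 CPM in the ethanol alone libraries, at -0.55. The other factors lay between -0.67 for Ndufaf8 and -0.23 for Ndufaf7.

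The mitochondrially encoded subunits are transcribed as long precursors from the mitochondrial genome, and their counts far exceeded those of the nuclear-encoded ones. Together they took 4.27% and 4.72% of all counts in the gavage libraries and 3.52% and 5.07% in the ethanol alone libraries, which overlap. The nuclear-encoded subunits together took 0.766% and 0.757% in the gavage libraries and 1.10% and 0.915% in the ethanol alone libraries, which do not. Ethanol alone replicate 1 thus held the highest nuclear-encoded share and the lowest mitochondrially encoded share of the 4 libraries. With 2 libraries a group an exact permutation test cannot give a 2-sided p under 0.05, so no test of the shares was made.

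mt-Co1, the catalytic core of complex IV, had 8035 and 10445 CPM in the gavage libraries and 7423 and 11597 CPM in the ethanol alone libraries. mt-Cytb, the cytochrome b of complex III, had 10278 and 10776 CPM in the gavage libraries and 10027 and 11565 CPM in the ethanol alone libraries. mt-Nd1 of complex I had 6367 and 7588 CPM in the gavage libraries and 5418 and 8485 CPM in the ethanol alone libraries. In all 3 the ethanol alone libraries were the lowest and the highest, with the gavage libraries between them, and the log2 fold changes were -0.04, -0.04 and 0.01. mt-Nd2 and mt-Nd4 also overlapped, at -0.14 and -0.06; the SE of these 5 genes lay between 0.24 and 0.33.

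mt-Nd5 and mt-Nd6 lie next to each other on opposite strands. mt-Nd5 (chrM:11742-13565, forward strand) had 5620 and 6644 CPM in the gavage libraries and 3273 and 6158 CPM in the ethanol alone libraries. mt-Nd6 (chrM:13552-14070, reverse strand) had 398 and 442 CPM in the gavage libraries and 686 and 502 CPM in the ethanol alone libraries. Ethanol alone replicate 1 was the lowest library for mt-Nd5 and the highest for mt-Nd6. The groups overlapped for mt-Nd5, at 0.38 ± 0.37 (SE, n = 2 each; edgeR adjusted p = 0.617), and not for mt-Nd6, at -0.50 ± 0.26 (edgeR adjusted p = 0.35). Without ethanol alone replicate 1 they were -0.03 and -0.28.

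The other mitochondrially encoded subunits were almost empty. mt-Nd3 had 17 and 14 counts in the gavage libraries and 23 and 33 counts in the ethanol alone libraries, with a log2 fold change of -0.94 ± 0.47 (SE, n = 2 each; edgeR adjusted p = 0.344). mt-Co2, mt-Co3, mt-Atp6, mt-Atp8 and mt-Nd4l had between 0 and 2 counts in any library, below the floor. For mt-Co2, mt-Co3, mt-Atp6, mt-Nd4l and mt-Nd3, between 98.0% and 100% of the 50-base windows of the gene also occur in other annotated genes, foremost nuclear copies on chromosome 1. mt-Atp8 has no such window (0%), but only annotated transcripts were searched. It overlaps mt-Atp6 on the same strand over part of its length (chrM:7766-7969 against chrM:7927-8607), and the cause of its empty counts was not tested. mt-Nd4 and mt-Co1, with 62.2% and 51.1% of windows shared, still held many counts. The sources used here do not say how reads with several possible origins were counted, so the low counts of these subunits say nothing of their expression, and complex V has no measured mitochondrially encoded subunit.

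**Figure D4:**
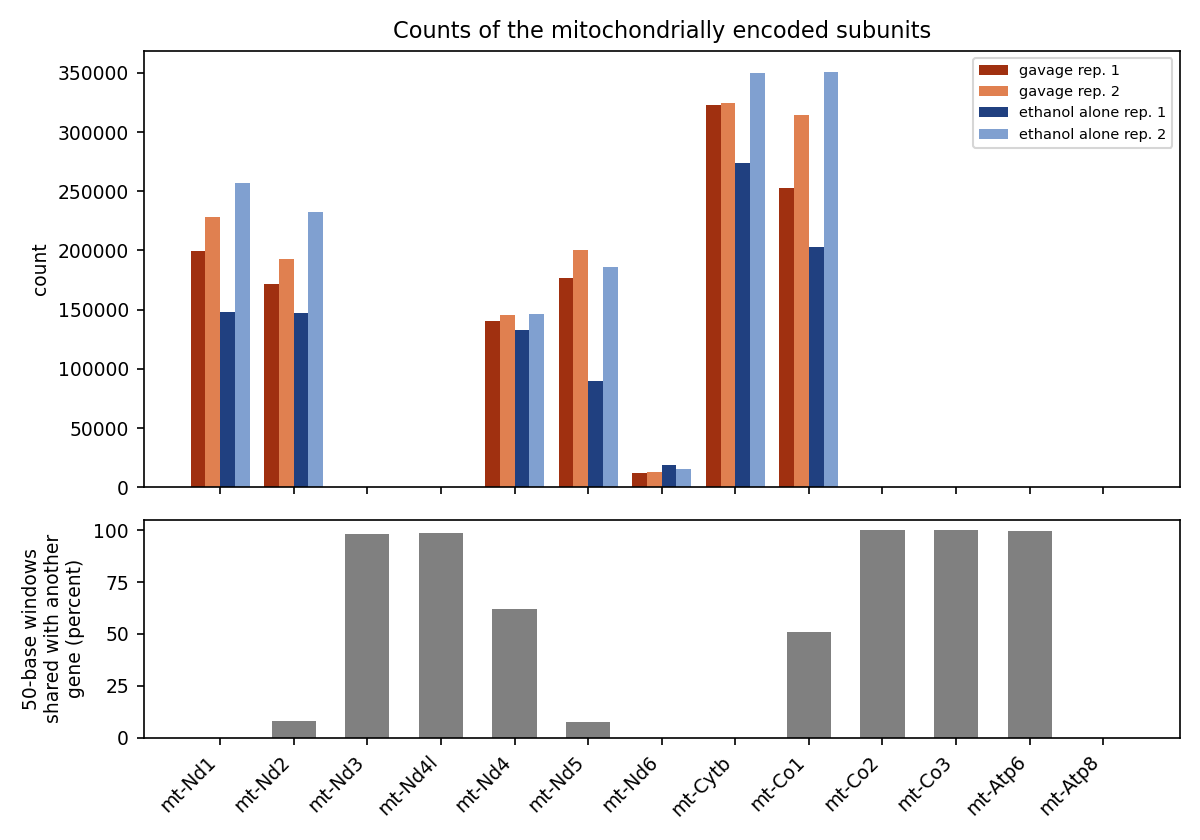
Upper panel: counts of each mitochondrially encoded subunit in each library, with the gavage libraries in red and the ethanol alone libraries in blue. Lower panel: percent of the 50-base windows of the gene that also occur in a transcript of another gene. In the upper panel mt-Nd3, mt-Nd4l, mt-Co2, mt-Co3, mt-Atp6 and mt-Atp8 have bars too low to see, and all of these but mt-Atp8 share 98.0% to 100% of their windows.

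The median log2 fold change of the mitochondrially encoded subunits exceeded that of the nuclear-encoded ones by 0.56. Without ethanol alone replicate 1 the gap was 0.08, since the mitochondrially encoded median became -0.30 and the nuclear-encoded one -0.38. Without ethanol alone replicate 2 the gap was 0.95, without gavage replicate 1 it was 0.59 and without gavage replicate 2 it was 0.43. The difference between the 2 genomes was thus nearly absent without ethanol alone replicate 1, and its size depended on which ethanol alone library was kept.

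Most of the 78 tested nuclear-encoded subunits have short transcripts, and short transcripts as a class lay lower in gavage. The 50 nuclear-encoded subunits with a principal transcript under 1000 bases had a median log2 fold change of -0.69, against -0.45 for the 770 tested nuclear genes of that length. The 28 subunits with longer transcripts had a median of -0.46, against 0.04 for 12332 such genes. The level of short transcripts was itself highest in ethanol alone replicate 1. Across the 770 genes that library exceeded ethanol alone replicate 2 by a median of 0.42 on the log2 scale. Without ethanol alone replicate 1 the median log2 fold change of the 770 genes was -0.20. Across genes, which are not independent replicates, Spearman's rho of length and fold change was 0.38 for the 78 subunits and 0.32 for the 13102 tested nuclear genes with a length, all from the same 4 libraries. An offset fitted to the trend in transcript length and GC content was added after seeing the data. With it the median of the nuclear-encoded subunits was -0.30 and 70 of 78 lay below 0. The median of all tested genes with a length was then -0.02. The offset did not remove the trend in full: the 770 genes with short transcripts kept a median of -0.09, against -0.01 for the 12332 others. The subunits of those 2 length classes were at -0.27 and -0.34. Ndufv3 and Uqcrq, whose transcripts are 1582 and 1521 bases long, were at -0.93 and -0.89 with the offset, and Atp5e and Atp5k, of 421 and 371 bases, at -0.47 and -0.44. The part of length in these fold changes was not tested beyond this offset.

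**Figure D5:**
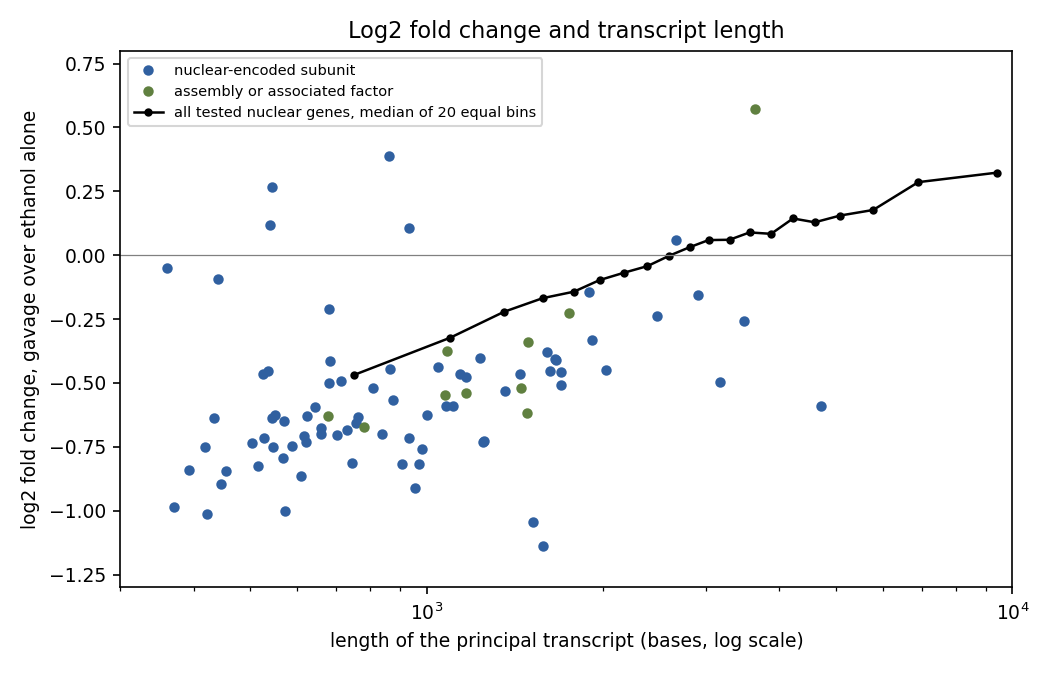
The horizontal axis is the length of the principal transcript in bases (log scale) and the vertical axis the log2 fold change, gavage over ethanol alone; blue points are nuclear-encoded subunits, green points assembly and associated factors, and the black line joins medians of all tested nuclear genes in 20 bins of equal size. The black line climbs from -0.47 in the bin of shortest transcripts to 0.32 in that of the longest, and most blue points lie below it.

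Promoters of respiratory genes are known for binding sites of NRF1, of the ETS-family factor GABP and of YY1. In the RefSeq promoter table (GRCm38.p6; 250 bases before to 50 after the start), 67 of the nuclear-encoded subunits were matched by symbol, with 72 promoters. The NRF1 letters GCGCA and GCGC with 1 base of any kind between them, searched on both strands like the others, stood in 25.0% of those promoters and in 4.60% of all 32851. The ETS letters CCGGAAG stood in 22.2% and 8.86%, the YY1 letters AAGATGGC in 13.9% and 2.75%, and TCAAGGTCA, found in sites of estrogen-related receptors, in 2.78% and 0.423%. Windows of 40 bases upstream of the start are printed below for subunits of complexes I, II, IV and V with the NRF1 letters and for Ndufaf4, to set a promoter of a gene that stood higher beside those that stood lower; capitals mark the match.
Ndufb4, chr16:37654535-37654574, reverse strand: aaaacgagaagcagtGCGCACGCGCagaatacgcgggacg
Ndufa11, chr17:56717687-56717726, forward strand: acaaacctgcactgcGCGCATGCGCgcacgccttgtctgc
Sdhd, chr9:50603904-50603943, reverse strand: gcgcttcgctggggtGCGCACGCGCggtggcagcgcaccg
Sdha, chr13:74350314-74350353, reverse strand: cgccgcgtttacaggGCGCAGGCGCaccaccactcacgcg
Cox6a1, chr5:115349096-115349135, reverse strand: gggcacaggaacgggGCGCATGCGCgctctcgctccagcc
Atp5h, chr11:115420036-115420075, reverse strand: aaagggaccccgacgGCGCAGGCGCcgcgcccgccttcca
Ndufaf4, chr4:24897955-24897994, forward strand: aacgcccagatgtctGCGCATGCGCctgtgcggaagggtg

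The log2 fold changes of these genes were -0.82 for Ndufb4, -0.64 for Ndufa11, -0.40 for Sdhd, -0.15 for Sdha, -0.65 for Cox6a1, -0.63 for Atp5h and 0.57 for Ndufaf4, so that the same letters stood before genes on both sides of 0. The 17 tested nuclear-encoded subunits with the NRF1 letters had a median of -0.57, and the 48 tested without them of -0.63. A match is a description of the sequence and not a measured binding site.

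The factors known to act on these promoters were mixed in direction. Of 11 nuclear regulators of respiratory genes, 4 lay below 0, against 48.3% of all tested genes, and 7 above, 3 of them at an unadjusted edgeR p under 0.05, against 8.91% of all tested genes. In 4 of the 11 the groups overlapped, against 6026 of all 13309 tested genes. In 4 both gavage libraries lay above both ethanol alone libraries, against 27.5% of all tested genes, and in 3 below, against 27.2%. Those 3 were Ppargc1a, Esrra, at -0.39, and Ppargc1b, at -0.31. The median was 0.38, and 0.24 without ethanol alone replicate 1 and 0.25 without ethanol alone replicate 2. Pprc1, a coactivator related to Ppargc1a, had 34.5 and 48.8 CPM in the gavage libraries and 15.2 and 18.9 CPM in the ethanol alone libraries. The groups did not overlap and the log2 fold change was 1.29 ± 0.24 (SE, n = 2 each; edgeR adjusted p = 0.134). Nrf1 had 14.6 and 16.01 CPM in the gavage libraries and 12.4 and 11.1 CPM in the ethanol alone libraries, at 0.38, and Gabpa, the DNA-binding subunit of GABP, 76.6 and 83.9 CPM in the gavage libraries and 52.3 and 61.1 CPM in the ethanol alone libraries, at 0.50. Ppargc1a, the coactivator of mitochondrial biogenesis, lay the other way with 11.8 and 14.2 CPM in the gavage libraries and 19.8 and 16.4 CPM in the ethanol alone libraries, at -0.47 ± 0.20 (SE, n = 2 each; edgeR adjusted p = 0.291).

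Of 18 tested genes for copying, transcribing and handling mitochondrial DNA and RNA, 13 lay above 0, with a median of 0.13. That median was small beside its spread over libraries: it was 0.24 without gavage replicate 1, 0.037 without gavage replicate 2 and 0.075 without ethanol alone replicate 1. Lrpprc, which stabilises mitochondrial messenger RNAs, had 199 and 182 CPM in the gavage libraries and 109.5 and 136.8 CPM in the ethanol alone libraries. The groups did not overlap, and the log2 fold change was 0.63 ± 0.22 (SE, n = 2 each; edgeR adjusted p = 0.237). Tfam, which packages mitochondrial DNA, was at -0.10 and the mitochondrial RNA polymerase Polrmt at 0.06.

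Assembly factors of each complex, including those that also belong to the members, had medians of -0.38 for complex I (15 tested, 12 below 0), -0.04 for complex II (4 tested, 3 below 0), -0.43 for complex III (6 tested, 5 below 0), -0.23 for complex IV (18 tested, 12 below 0) and -0.23 for complex V (4 tested, 3 below 0). The complex III value was -0.25 without gavage replicate 1, the complex IV value -0.39 without gavage replicate 2, and the complex II value -0.14 without ethanol alone replicate 2 and -0.076 without gavage replicate 2. The most abundant factors of complexes III and IV, Uqcc1 and Coa5, were at -0.15 and -0.24, and those with the smallest p of complexes II and V, Sdhaf4 and Fmc1, at -0.56 and -0.81. Sco2, which delivers copper to complex IV, had 9.49 and 10.3 CPM in the gavage libraries and 21.5 and 16.6 CPM in the ethanol alone libraries, without overlap and at -0.94 ± 0.21 (SE, n = 2 each; edgeR adjusted p = 0.152). Ttc19, which clears fragments of the iron-sulfur protein from complex III, stood the other way with 20.6 and 18.5 CPM in the gavage libraries and 9.92 and 11.4 CPM in the ethanol alone libraries, at 0.87 ± 0.18 (SE, n = 2 each; edgeR adjusted p = 0.147).

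Of 14 genes for cytochrome c and coenzyme Q, 10 lay below 0, with a median of -0.12, which was -0.32 without ethanol alone replicate 2 and -0.23 without gavage replicate 2. Coq8a, a kinase-like protein of coenzyme Q synthesis, had 93.4 and 51.3 CPM in the gavage libraries and 496 and 468 CPM in the ethanol alone libraries. The gap between the groups was far wider than the spread within either, and the log2 fold change was -2.74 ± 0.36 (SE, n = 2 each; edgeR adjusted p = 0.12). Other mitochondrial proteins outside the chain were near level: 16 genes of the outer and inner membrane and matrix had a median of -0.09 (-0.039 without ethanol alone replicate 1 and -0.21 without ethanol alone replicate 2), with 12 below 0, and Vdac1, the main outer membrane channel, had 212 and 202 CPM in the gavage libraries and 209 and 220.5 CPM in the ethanol alone libraries. Phb, an inner membrane scaffold, was the lowest of them at -0.80 ± 0.21 (SE, n = 2 each; edgeR adjusted p = 0.187).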

How the data were processed

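The authors deposited raw whole-number counts per gene symbol; per the submitters' processing notes the tools were HTSeq, edgeR, STAR (version 2.6.0a) and bcl2fastq (version 2.20.0.422), with the build GRCm38. Since the sources used here give no annotation, strand setting or multi-mapping rule, copies, overlapping and antisense genes may share counts. The labels mention a TruSeq and a KAPA mRNA HyperPrep preparation without saying which served which library; the effect of the kit on mitochondrial or short transcripts was not tested. Genes were kept by filterByExpr (minimum count 10, minimum total 15; 13309 genes, 97 of the 106 members), scaled by TMM and tested with edgeR 4.0.16 in R 4.3.3 (2-sided quasi-likelihood F-test, Benjamini-Hochberg, threshold 0.05); the SE is the absolute log2 fold change over the square root of F. The biological coefficient of variation was 0.311. Alternatives used DESeq2 1.42.0, limma 3.58.1 and other settings. Lengths, coordinates (whole genes) and 50-base windows came from GENCODE M21 (GRCm38), matched by symbol for 105 of 106 members. Replicates of a group differed beyond sampling noise (chi-square per degree of freedom 135 for gavage, 126 for ethanol alone). Membership follows the symbol alone, but the choice of these genes as a subject, and of the lists, was made with earlier results of these data known. Named were all mitochondrially encoded members, the isoform pairs, the 8 members with the smallest p, the most abundant and most changed subunit of each complex, fixed regulators, and the most abundant and smallest-p gene of each list; any other gene was named after its values were seen. Not every gene covered by the rule is reported here.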

Additional observations from a re-analysis of the deposited data

How the results depend on the processing

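No member was called in the quasi-likelihood fits, whichever scaling, filter or library was changed. Genes called over the whole table, 0 of 13309 tested in the report, numbered 1181 with DESeq2 and 549 with the likelihood-ratio test. Of the 97 tested members, DESeq2 called 9, all lower, against 4.94% of all tested genes called lower and 3.93% higher. The likelihood-ratio test called 1 of the 97, lower, a smaller share than the 1.98% of all tested genes called lower. A replicate block called 410 genes, no member among them, and left the median of the nuclear-encoded subunits at -0.60; the labels do not say that the numbers pair libraries, although the deviations of the libraries numbered 1 correlated at 0.587 across genes, which are not independent. Leaving out 1 library gave 31 called genes without gavage replicate 2, 12 without ethanol alone replicate 2 and 0 otherwise; the lone library is then assumed to vary like the other group. It moved the nuclear-encoded median between -0.90 and -0.38 (complex I -0.96 to -0.39, II -0.50 to -0.38, III -0.81 to -0.39, IV -1.01 to -0.37, V -0.71 to -0.35), the mitochondrially encoded median between -0.30 and 0.048 and their gap between 0.078 and 0.95, the ends being the fits without 1 of the ethanol alone libraries. The offset for length and GC content gave -0.30 for all nuclear-encoded subunits and -0.33, -0.23, -0.27, -0.24 and -0.26 for complexes I to V. All tested genes with a length then had a median of -0.02. Library totals in place of TMM shifted the median of all genes to 0.10 and gave -0.36 for complex II, and turned the sign of mt-Co1 (0.023), mt-Cytb (0.037), mt-Nd4 (0.019), Cox8b (0.083), Sdhaf2 (0.019), Tmem70 (0.0046) and Vdac1 (0.022). Signs also turned with the offset for Cox6a2 (0.33), Cox8b (0.63), Atp5g2 (0.35), Polrmt (-0.029) and Tmem70 (0.018), with limma-voom for Cox6a2 (0.042), Acta1 (-1.32) and Myh1 (-0.72), and with the block for Acta1 (-0.57). With 1 library left out they turned for mt-Co1 (-0.36 to 0.26), mt-Cytb (-0.16 to 0.015), mt-Nd1 (-0.31 to 0.31), mt-Nd2 (-0.40 to 0.081), mt-Nd5 (-0.033 to 0.85), Cox6a2 (-5.41 to 5.20), Cox7a1 (-1.65 to 0.15), Cox8b (-8.06 to 3.01), Ndufa4l2 (-0.36 to 0.45), Cycs (-0.69 to 0.23), Polrmt (-0.035 to 0.15), Dcn (-0.18 to 0.16), Spp1 (-0.43 to 0.059), Acta1 (-8.13 to 5.20) and Myh1 (-8.44 to 6.47). The cause of these moves was not tested. For Cox4i2, Cox7b2 and Cox8c, with 0 to 4 counts a library, no difference was detectable at this depth.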

Other observations

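Markers of the other liver cells gave these sums, in CPM. Kupffer cell markers (6 genes) were at 265 and 292 in the gavage libraries and 456 and 450 in the ethanol alone libraries, without overlap. Of the lists that follow, the sinusoidal endothelial sum was also lower in gavage without overlap, and the stellate cell and neutrophil sums were higher without overlap. Sinusoidal endothelial markers (6) were at 339 and 376 in the gavage libraries and 384 and 390 in the ethanol alone libraries, stellate cell markers (5) at 464 and 420 in the gavage libraries and 415 and 379 in the ethanol alone libraries, and cholangiocyte markers (5) at 72.9 and 57.4 in the gavage libraries and 80.6 and 65.5 in the ethanol alone libraries. Neutrophil markers (6) were at 16.7 and 6.05 in the gavage libraries and 4.69 and 4.13 in the ethanol alone libraries, brown adipocyte markers (2) at 2.17 and 0.0664 in the gavage libraries and 0.293 and 0.033 in the ethanol alone libraries, and erythroid markers (5) at 96.3 and 73.8 in the gavage libraries and 197 and 94.8 in the ethanol alone libraries. Their part in the fold changes of the respiratory genes was not tested.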
